A study of Mus musculus with 140 samples.

Results

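Gastrocnemius muscle was compared between mice that had run on a treadmill for 1 h early in their active phase and mice placed on a stationary treadmill for the same time, 4 h after the treadmill in both groups. The samples were chosen by their titles: 5 exercised libraries (replicates 1, 2, 4, 5 and 6) and 6 sham libraries (replicates 1 to 6), 11 of the 140 samples in the labels, of which 3 have no file and are not analysed here. All mice were male C57B6/J animals of 10 to 11 weeks, kept under lights on for 12 h a day and fed freely, also after the treadmill. The treadmill started at ZT15, that is 15 h after lights on, and the muscle was taken at ZT20. The same design was run in the rest phase, and muscle was sampled at 6 times from 0 h to 20 h after the treadmill, which gave 24 groups. These 24 groups entered a common limma model, so that the spread of each gene was estimated over all of them. Libraries were made from ribosomal-RNA-depleted total RNA, and each mouse's muscle is taken as a separate sample, although the labels do not say outright that each library is a different mouse.

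Contracting muscle switches on genes in waves. Within minutes of contraction, calcium, energy stress and adrenergic signals act on transcription factors already present in the fibre, and immediate early genes such as Fos, Junb and the Nr4a nuclear receptors are transcribed and their short-lived RNA is soon lost. Later waves hold metabolic regulators such as Ppargc1a, the coactivator of mitochondrial biogenesis. Cyclic AMP response elements are DNA sites bound by the CREB, CREM and ATF factors. At 4 h the mice were in the dark and free to feed.

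Only 2 of 11461 measured genes passed an adjusted p of 0.05 at 4 h, Impact and Ell2, and both were higher after exercise. They make up 0.0175% of the genes tested. The 12 genes with the smallest p on each side are described with them below, since they show how the exercised and sham muscles were ordered. Among the 12 higher genes, RefSeq promoter entries of the GRCm38.p6 build were found for 7, and among the 12 lower genes for 9. Of the 2 genes that passed, Ell2 had an entry and Impact did not, so the other higher genes with an entry missed the threshold. The full cyclic AMP response element TGACGTCA, which reads the same on both strands, was present in the 250 bases before the start of 4 of the 7 higher genes and of 0 of the 9 lower genes. It was present for 3.14% of the 8817 measured genes with an entry. A gene counted if any of its windows held the element. By window, the element was in 33.3% of 12 windows of the higher genes and 0% of 14 windows of the lower genes. Among the 11359 windows of measured genes it was 2.6%. The shorter site TGACG, or CGTCA on the other strand, which the full element contains, was present for 6 of the 7 and for 2 of the 9, against 31.5% of measured genes. This motif was chosen after the genes were known, and a match describes the letters of the window, not a bound site. The 4 promoters with a full element are shown here, 5′ to 3′ on the gene's strand, because these genes recur in the results. Capitals mark full elements and further short sites. The Ell2 window lies at chr13:75707234-75707483 on the plus strand, with the element 198 bases before the RefSeq start, which lies downstream of the gene start that GENCODE gives. The Snhg15 window lies at chr11:6528761-6529010 on the minus strand, with the element 88 bases before the start. The Maff window, one of several listed for this gene, lies at chr15:79347270-79347519 on the plus strand, with the element 29 bases before the start. The Retreg1 window, also one of several, lies at chr15:25843048-25843297 on the plus strand, with the element 148 bases before the start.
Ell2: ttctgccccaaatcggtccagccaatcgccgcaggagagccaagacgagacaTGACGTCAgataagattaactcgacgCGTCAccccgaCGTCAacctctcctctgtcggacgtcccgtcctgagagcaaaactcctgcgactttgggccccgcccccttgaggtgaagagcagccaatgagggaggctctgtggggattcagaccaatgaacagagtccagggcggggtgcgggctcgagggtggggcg
Snhg15: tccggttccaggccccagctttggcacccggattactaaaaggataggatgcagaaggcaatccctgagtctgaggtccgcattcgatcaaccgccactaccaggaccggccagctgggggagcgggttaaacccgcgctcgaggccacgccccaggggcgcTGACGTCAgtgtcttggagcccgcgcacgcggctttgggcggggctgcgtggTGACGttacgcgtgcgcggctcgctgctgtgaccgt
Maff: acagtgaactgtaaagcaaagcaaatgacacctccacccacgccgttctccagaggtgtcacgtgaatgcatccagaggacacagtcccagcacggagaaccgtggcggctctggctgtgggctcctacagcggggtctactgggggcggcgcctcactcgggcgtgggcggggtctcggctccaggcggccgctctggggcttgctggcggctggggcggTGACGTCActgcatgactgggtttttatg
Retreg1: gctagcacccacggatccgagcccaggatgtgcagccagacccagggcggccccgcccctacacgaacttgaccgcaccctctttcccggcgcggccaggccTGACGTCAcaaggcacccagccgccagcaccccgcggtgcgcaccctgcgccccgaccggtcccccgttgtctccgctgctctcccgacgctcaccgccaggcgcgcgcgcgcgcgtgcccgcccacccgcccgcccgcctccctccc

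Ell2 encodes an elongation factor that increases the rate of RNA polymerase II and is a subunit of the super elongation complex. The gene lies at chr13:75706757-75772364 on the plus strand of GRCm38. Its deposited value, the authors' reads scaled to M (mega) reads of a normalised library size, was 64.7, 33.3, 60.96, 58.5 and 56.7 in exercised replicates 1, 2, 4, 5 and 6. In the sham libraries the lowest value was 17.5, the median 26.9 and the highest 40.6. Exercised replicate 2 lay inside the sham range, and the other 4 exercised libraries lay above all 6 sham libraries. The difference of the means of log2(value + 0.5) was 1.03 with a standard error of 0.20 and a 95% interval of 0.64 to 1.43 (limma, adjusted p = 0.0057). Of the 20 measured genes of transcription elongation control, Ell2 was the only member that passed, and the list's median difference was -0.18, against -0.03 over all genes. Eaf1, whose protein is a partner of ELL factors, had a difference of -0.33 ± 0.17 (SE, adjusted p = 0.53). An antisense gene that was not measured overlaps Ell2, and because the strand setting of the counting is not given, reads of that partner cannot be told apart from Ell2.

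Impact encodes a protein that binds GCN1 and restrains the kinase GCN2, which slows translation when amino acids are short. The gene lies at chr18:12955852-12992950 on the plus strand. Its values were 37.8, 19.5, 22.1, 27.5 and 31.97 in the exercised libraries. The sham libraries ran from 12.5 through a median of 13.95 to 19.6, and the highest, replicate 1, just exceeded the lowest exercised library, replicate 2. The difference was 0.87 ± 0.16 on the log2(value + 0.5) scale (SE, 95% interval 0.56 to 1.19, limma, adjusted p = 0.0021). Within the 21 measured genes of the integrated stress response and GCN2 control, Impact was again the only one to pass. Eif2ak4, which encodes GCN2 itself, had a difference of 0.09 ± 0.18. Atf4, the transcription factor downstream of these kinases, had 0.51 ± 0.28 and overlapping groups, and its target Chac1 had -0.94 ± 0.48 (adjusted p = 0.53 for both, limma). The list's median of 0.04 was close to that of all genes.

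The calls of Impact and Ell2 depend on the spread being shared over the 24 groups and on single libraries. Fitted on the 11 libraries alone, limma called 0 genes (both genes at adjusted p = 0.49, with 1003 genes at an unadjusted p under 0.05), and edgeR on reads recovered from the values called 0 in the same libraries. Without exercised replicate 1, limma called 0 genes, with Impact at adjusted p = 0.085 and Ell2 at 0.11. Without sham replicate 2 or sham replicate 4 it called 1, Impact. The count was 6 without exercised replicate 4, 6 without exercised replicate 5 and 5 without sham replicate 6, and both genes stayed called in these repeats. Over the 11 repeats that each left out 1 library, Impact was called in 10 and Ell2 in 8, and their differences ranged from 0.75 to 0.99 and from 0.92 to 1.20. When library totals were set equal, the median of all genes moved to -0.34, Impact stood at 0.55 and Ell2 at 0.71 before that shift is taken off, and neither passed (adjusted p = 0.35 for both). Array weights, which give less weight to libraries that deviate from their group, took the share of called genes to 27.2%.

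**Figure D1:**
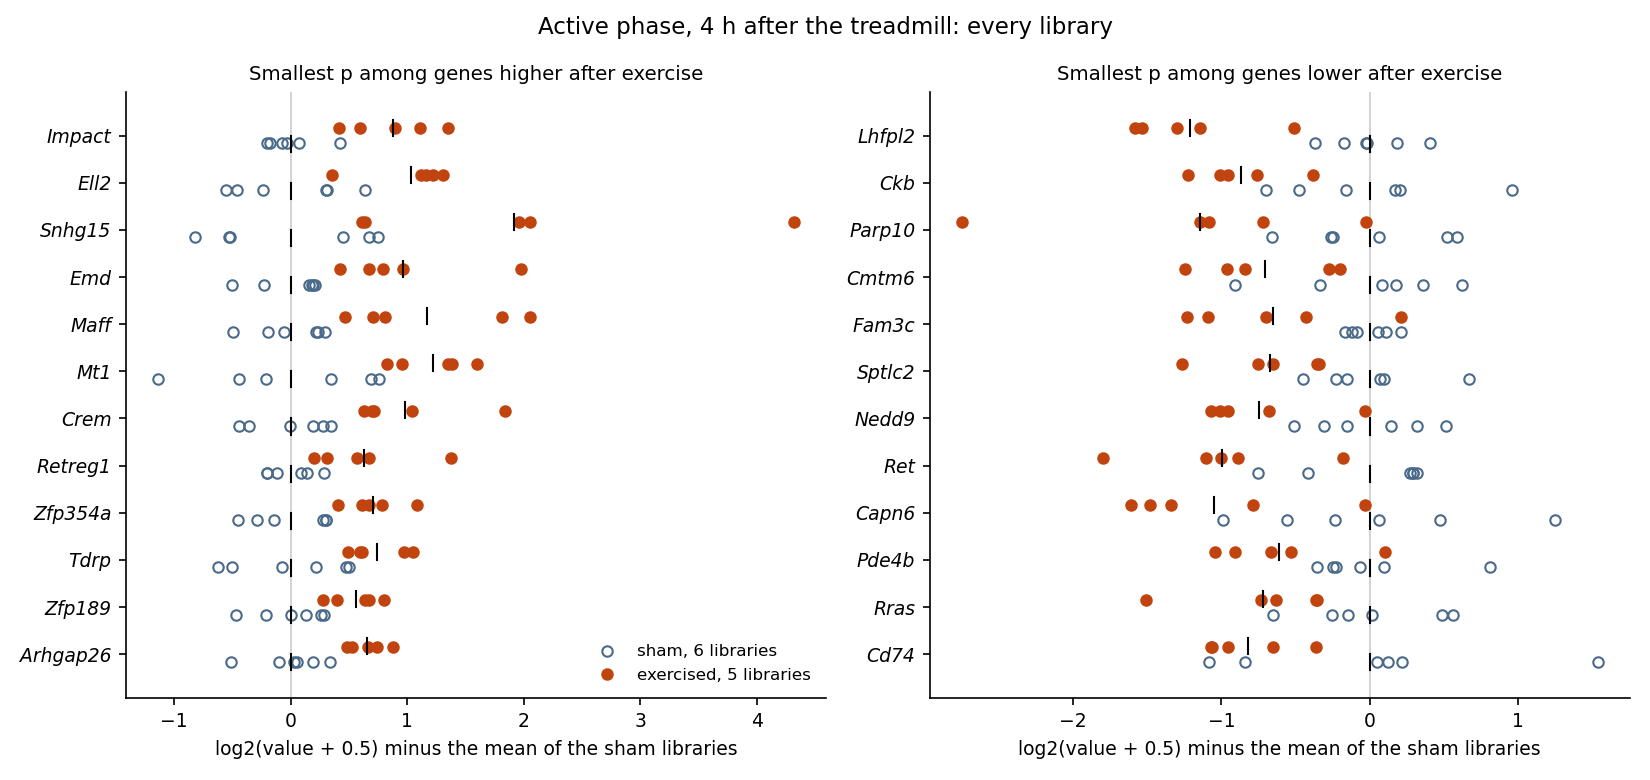
Every library at 4 h in the active phase, for the 12 genes with the smallest p on each side. The horizontal axis is log2(value + 0.5) minus the mean of the sham libraries, filled points are the 5 exercised and open points the 6 sham libraries, and black ticks are group means. Most exercised points of Impact and Ell2 lie to the right of all sham points, and Snhg15 has 1 exercised library far to the right.

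Both genes had their highest group means in exercised muscle near the treadmill. Impact averaged 32.9 (SD 13.8, n = 6) in the exercised mice at 0 h and 27.8 (SD 7.39, n = 5) at 4 h in the active phase, and 23.8 (SD 2.13, n = 4) and 20.9 (SD 4.10, n = 6) in the rest phase. These were the 4 highest of 24 group means, and the 20 other groups had means of 9.30 to 14.7. Ell2 averaged 54.8 (SD 12.4, n = 5) at 4 h and 47.9 (SD 8.62, n = 6) at 0 h in the active phase, with 41.8 (SD 5.52, n = 6) and 38.4 (SD 8.00, n = 4) in the rest phase. The next Ell2 means were close to the last of these. They were 35.9 (SD 3.02, n = 6) in active-phase sham at 0 h and 35.1 (SD 5.15, n = 6) in rest-phase exercised mice at 12 h. Neighbours in these orders overlapped within their SDs. The exercise effect on Impact was 1.48 ± 0.15 at 0 h (adjusted p = 1.6e-13) and 0.13 ± 0.16 at 8 h, and that on Ell2 was 0.39 ± 0.19 at 0 h (adjusted p = 0.22) and -0.32 ± 0.20 at 8 h. The effect at 4 h minus that at 8 h was 0.74 ± 0.22 for Impact and 1.35 ± 0.28 for Ell2, neither past an adjusted p of 0.05 (0.086 and 0.060).

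At the same hour in the rest phase, 4 h after a treadmill at ZT3, Impact differed by 0.52 ± 0.15 (adjusted p = 0.81) and Ell2 by 0.77 ± 0.19 (adjusted p = 0.36). The difference between the phases was 0.36 ± 0.22 for Impact and 0.26 ± 0.28 for Ell2 (adjusted p = 1.0 for both). Across all genes, limma found 0 whose 4 h effect differed between the phases, with 199 at an unadjusted p under 0.05, and edgeR and DESeq2 on recovered reads also found 0. A miss of the threshold does not show that the phases acted alike. Of the 12 higher genes, 12 had the same sign in the rest phase at 4 h, and of the 12 lower genes 11 had it. The share of all genes with the same sign there was not counted. The difference between the phases had an unadjusted p under 0.05 (limma) for 0 of the 12 higher and 8 of the 12 lower genes. Over all genes it was 1.74%. These genes were chosen by their active-phase values, which enter that difference. The active and rest comparisons use different sham mice.

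**Figure D2:**
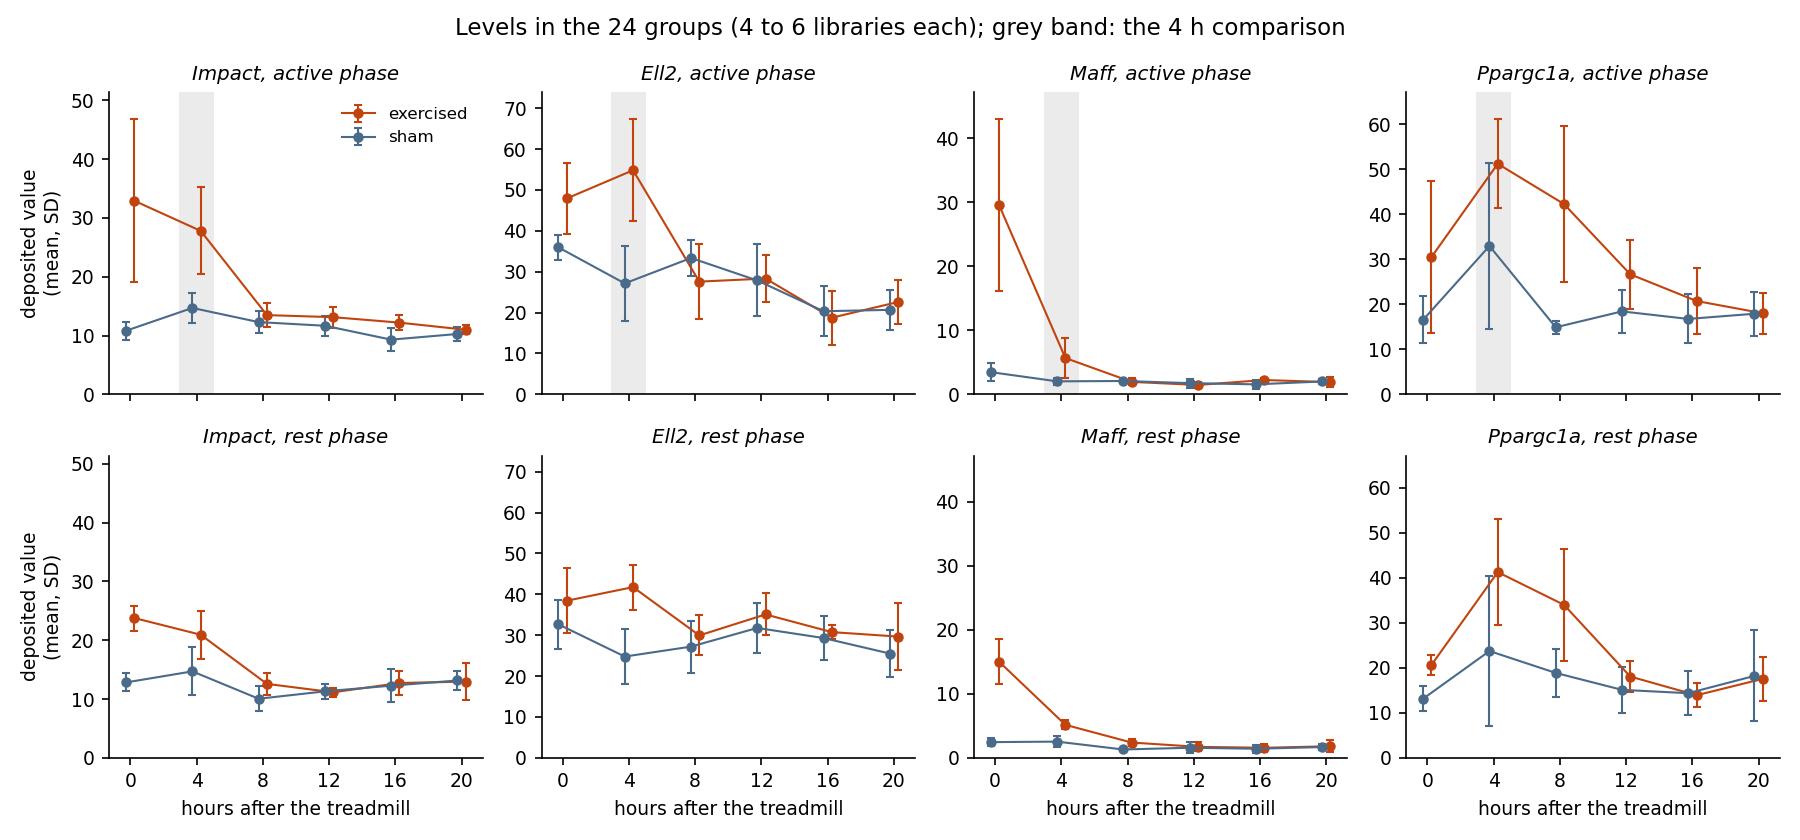
Deposited values (mean and SD of 4 to 6 libraries) of Impact, Ell2, Maff and Ppargc1a against hours after the treadmill, in the active phase (upper row, grey band at 4 h) and the rest phase (lower row). Impact and Ell2 are high in exercised mice at 0 h and 4 h and near sham at 8 h, Maff has fallen most of the way by 4 h, and Ppargc1a shows wide sham error bars at 4 h.

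Among the other higher genes, Maff, Emd and Crem had no overlap between the groups, although none passed the limma test. Maff, a small MAF transcription factor, had 9.79, 3.85, 2.93, 3.55 and 8.22 in the exercised libraries against 1.26 to 2.54 (median 2.13) in sham, and all exercised libraries lay above all sham libraries. Its difference was 1.17 ± 0.28 (limma, adjusted p = 0.10). Emd, which encodes emerin, a protein of the inner nuclear membrane that binds lamins, had 49.6, 21.5, 19.7, 16.5 and 24.3 against 8.45 to 14.2 (median 13.8), also without overlap (0.97 ± 0.23, adjusted p = 0.10). Crem, whose products include a cyclic AMP-inducible repressor, had 58.3, 26.3, 26.5, 24.96 and 33.4 against 11.6 to 20.4 (median 17.1). Its groups did not overlap either, at 0.98 ± 0.29 (adjusted p = 0.52). Over all genes, 0.14% had every exercised library above every sham library and 0.157% had the reverse, counts of 16 and 18 genes. At 0 h, Maff (2.79 ± 0.27, adjusted p = 7.9e-15) and Emd (0.86 ± 0.22, adjusted p = 0.020) had risen after exercise, and Crem had not passed (0.14 ± 0.27, adjusted p = 0.73).

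Snhg15, a long noncoding RNA that hosts the small nucleolar RNA Snora9, had the largest difference of the 12. Its values were 41.1, 7.59, 2.67, 2.73 and 8.12 after exercise and 0.679 to 3.002 (median 1.64) in sham. Exercised replicate 1 was far above every other library, and replicates 4 and 5 lay within the sham range. The difference was 1.92 ± 0.44 (limma, adjusted p = 0.079), and edgeR called it (adjusted p = 0.0014). Maff, Emd and Snhg15 were among the 10 genes that edgeR called in the recovered reads of all 24 groups (0.0873% of genes), but without exercised replicate 1 edgeR called 0.

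Mt1, a metallothionein that binds zinc and copper and responds to glucocorticoids, had 38.6, 32.5, 22.5, 24.7 and 33.3 after exercise. The sham values ran from 5.38 to 21.4 with a median of 13.4, and the groups did not overlap. The difference was 1.22 ± 0.33 (limma, adjusted p = 0.35). Mt1 was higher after exercise at 0 h in both phases (2.37 ± 0.31 in the active phase, adjusted p = 1.4e-08) and, in the rest phase, also at 4 h (1.66 ± 0.31, adjusted p = 0.0075), and it stood at 1.22 ± 0.33 at 8 h of the active phase (adjusted p = 0.20). Of the 24 measured glucocorticoid targets, 0 passed at 4 h and 2 had an unadjusted p under 0.05, Mt1 and Trim63, both higher, beside 3.02% of all genes on that side. Retreg1, a receptor for autophagy of the endoplasmic reticulum, had 400, 177, 246, 229 and 191 against 133.8 to 187 (median 153), with exercised replicate 2 inside the sham range (0.63 ± 0.19, adjusted p = 0.53). The zinc-finger genes Zfp354a and Zfp189, Arhgap26, which encodes a GTPase-activating protein, and Tdrp had differences of 0.56 to 0.74, all at adjusted p = 0.53. Zfp354a and Arhgap26 did not overlap between the groups.

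On the lower side, 0 genes passed limma at 4 h, 440 (3.84%) had an unadjusted p under 0.05 against 346 (3.02%) on the higher side, and edgeR called 4. Lhfpl2, a tetraspan membrane protein gene, was the only one of the 12 lower genes without overlap between the groups. Its values were 1.96, 2.49, 2.04, 2.83 and 4.65 after exercise and 5.18 to 9.23 (median 6.74) in sham, a difference of -1.21 ± 0.27 (limma, adjusted p = 0.067). edgeR called it (adjusted p = 0.043). Ckb, the brain-type creatine kinase that regenerates ATP from phosphocreatine, had 3.13, 5.09, 3.82, 2.62 and 3.27 against 4.00 to 13.7 (median 6.86), with exercised replicate 2 above 2 sham libraries (-0.86 ± 0.22, limma adjusted p = 0.18, edgeR 0.045).

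The other lower genes included Pde4b, a phosphodiesterase that degrades cyclic AMP (-0.61 ± 0.17), Nedd9, a scaffold of focal adhesions (-0.75 ± 0.21), Ret, a receptor tyrosine kinase (-0.99 ± 0.28), Sptlc2, a subunit of the enzyme that starts sphingolipid synthesis (-0.67 ± 0.19), and Cmtm6, a membrane protein gene known for stabilising PD-L1 (-0.71 ± 0.19). Pde4b had values of 34.6, 40.9, 69.9, 45.03 and 31.4 after exercise and 50.8 to 114.7 (median 58.9) in sham, and 4 of the 5 exercised libraries lay below all sham libraries. Fam3c, Capn6, Rras and the ADP-ribosyltransferase gene Parp10, which overlaps the measured gene Plec, differed by -0.65, -1.05, -0.72 and -1.14. Adjusted p values of these genes ran from 0.35 to 0.53. Cd74, the invariant chain of antigen presentation, had 15.1 to 25.1 after exercise and 15.01 to 94.9 in sham, where replicate 2 stood highest (-0.82 ± 0.25). Of the 12 lower genes, 2 had the same sign at 0 h and 1 at 8 h, and of the 12 higher genes 8 and 4. Among all genes lower at 4 h, 19.3% had the same sign at 0 h and 18.2% at 8 h, and among all genes higher at 4 h, 20.9% and 18.5%.

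Sham replicate 2 stood apart from the other sham libraries in genes of matrix and regenerating fibres, which were named after their values were seen. Postn, which encodes the matrix protein periostin, had 251 in that library and 4.503 to 11.4 in the other 5 sham libraries, and Myh8, the perinatal myosin heavy chain, had 38.7 against 1.02 to 1.46. Col3a1, a collagen gene, had 884 against 197 to 278. The exercised libraries had 3.40 to 16.8 of Postn and 1.15 to 1.98 of Myh8. edgeR called both genes lower after exercise over all libraries, and without sham replicate 2 it called 5 genes, Snhg15, Ell2, Maff, Impact and the predicted gene 1110046J04Rik, none of them lower.

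The exercise effect was lower at 4 h than at 0 h in 25 of the 27 measured immediate early genes. For 12 of them this change passed an adjusted p of 0.05 (limma). Of 34 listed genes 27 were measured, and 16 had passed with higher values after exercise at 0 h, when 0.977% of all genes did. At 4 h 0 passed, and 2 (7.41%) had an unadjusted p under 0.05, Maff and Nr4a3. Both were higher, beside 3.02% of all genes on that side. The list's median difference was 1.45 at 0 h and -0.12 at 4 h, beside 0.03 and -0.03 over all genes. The change between the hours was tested directly, as the effect at 4 h minus that at 0 h. It was smaller at 4 h for 57 genes (0.497% of those tested) and greater for 6 (0.0524%), at adjusted p under 0.05 with limma. Smaller and greater refer to the signed effect, so a change from a positive to a negative effect counts as smaller. The 57 included those 12 immediate early genes.

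Junb, an AP-1 subunit, had an effect of 4.00 ± 0.38 at 0 h and -0.47 ± 0.39 at 4 h, a change of -4.48 ± 0.54 (adjusted p = 1.5e-09). Its 4 h values were 4.44, 4.78, 6.62, 3.24 and 4.85 after exercise and 4.66 to 9.34 (median 6.50) in sham, so 2 exercised libraries lay below all sham libraries and none above. Btg2, an antiproliferative gene that promotes RNA decay, went from 3.44 to -0.51 (change -3.95 ± 0.42, adjusted p = 3.7e-12). Fos, the AP-1 partner of the JUN proteins, went from 3.205 to -0.73 (change -3.93 ± 0.71, adjusted p = 0.00039). Fosl2, Sik1, Csrnp1, Klf4, Gadd45b, Zfp36, Nr4a1, Dusp1 and Maff also had smaller effects at 4 h, with changes of -2.72 to -1.40. Of these 12, Maff had the highest 4 h effect.

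Nr4a3, an orphan nuclear receptor induced by contraction, had mostly higher values after exercise at 4 h, as Maff did. It had 34.3, 23.1, 16.4, 18.1 and 23.7 after exercise, and 32.2, 5.84, 4.36, 6.93, 6.22 and 3.002 in sham replicates 1 to 6. All exercised libraries lay above 5 of the 6 sham libraries, and sham replicate 1 stood near the highest exercised library. The difference was 1.61 ± 0.59 (limma, adjusted p = 0.53), after 3.04 ± 0.56 at 0 h (adjusted p = 1.1e-04), and the change between the hours did not pass (adjusted p = 0.17). Atf3, a stress-induced repressor, had 29.6, 16.5, 17.1, 10.2 and 17.5 against 3.50 to 20.1 (median 7.57), with overlapping groups (0.90 ± 0.45, adjusted p = 0.53).

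**Figure D3:**
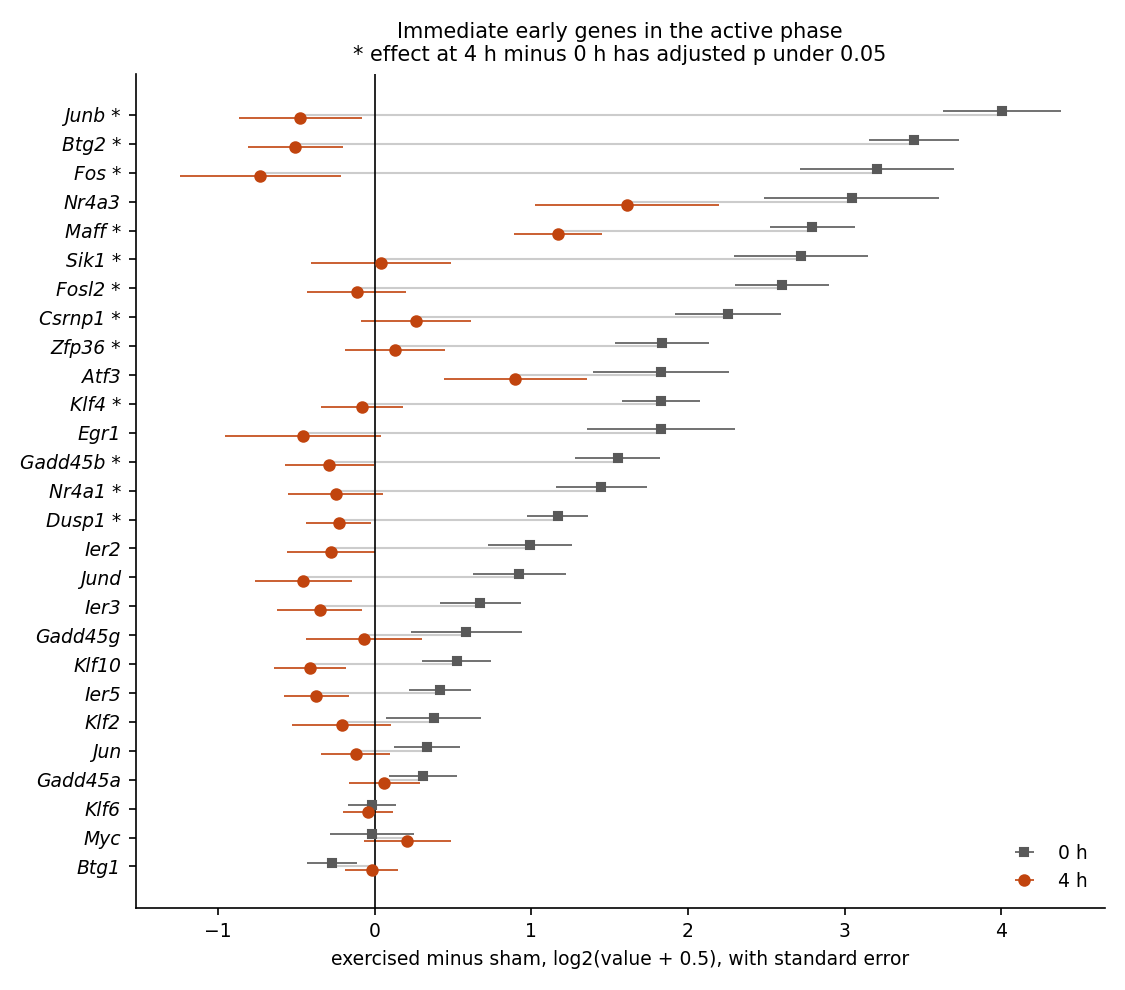
Exercised minus sham on the log2(value + 0.5) scale, with standard errors, for the 27 measured immediate early genes at 0 h (squares) and 4 h (circles) in the active phase. Stars mark the 12 genes whose change between the hours passed an adjusted p of 0.05, and Junb, at the top, goes from 4.00 to -0.47.

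Genes outside the immediate early list also had smaller effects at 4 h than at 0 h. Irs2, the insulin receptor substrate, changed by -2.92 ± 0.59 (adjusted p = 0.0026), the Notch target Hes1 by -2.03 ± 0.28 (9.7e-08), the clock repressor Ciart by -2.27 ± 0.42 (0.00048), the kinase gene Pim1 by -2.0 ± 0.44 (0.0078) and Errfi1, a feedback inhibitor of the EGF receptor, by -1.61 ± 0.28 (0.00022). Irs2 had 7.83 to 14.9 after exercise (median 10.1) and 11.4 to 24.99 in sham (median 13.97) at 4 h, and 4 of 5 exercised libraries lay below all sham libraries (-0.61 ± 0.43, adjusted p = 0.53). The 6 genes with a greater effect at 4 h were the zinc-finger genes Zfp354a, Zfp14 and Zfp982 and 3 predicted genes, and each had a negative effect at 0 h. Actg1, cytoplasmic gamma actin, changed by -0.998 ± 0.22 (0.0087).

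The count of 63 genes for this change, 0.55% of those tested, moved with the libraries kept. It fell to 0.253% without exercised replicate 1, 0.297% without sham replicate 2, 0.314% without exercised replicate 4, 0.332% without sham replicate 1 and 0.349% without sham replicate 4. It went up to 0.969% without sham replicate 6, 0.986% without exercised replicate 2, 1.1% without sham replicate 3 and 7.0% without exercised replicate 5. In these repeats 9 to 15 immediate early genes had a smaller effect at 4 h past the threshold, and 7 of the 12 were called in all 11 repeats. The fit with the length slope as a covariate called 39 genes, 28 of them among the 57, with 9 immediate early genes. Between 4 h and 8 h, limma called 0 genes, as did edgeR and DESeq2, but limma called 1872 without sham replicate 3. It called 5 without exercised replicate 2, 3 without sham replicate 6 and 1 without sham replicate 5. Before adjustment, limma gave p under 0.05 for 4570 genes (39.9%), but for only 552 (4.82%) with the length slope as a covariate. For 4 h minus 0 h these counts were 4258 (37.2%) and 1356 (11.8%). Why the counts fell with the slope was not tested.

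Of the core clock, 20 of 21 listed genes were measured, and 0 passed at 4 h or reached an unadjusted p under 0.05. Per1 and Per2, the light- and stress-responsive period genes, had differences of 0.15 ± 0.26 and 0.06 ± 0.28, and Arntl, which encodes the activator BMAL1, had -0.09 ± 0.32. Dbp, an output gene of the clock, had 7.57 to 13.1 after exercise and 9.60 to 18.6 in sham (-0.34 ± 0.24). Nr1d1, the repressor REV-ERB alpha, had 3.27 to 5.09 after exercise, within the sham range of 3.01 to 10.7 (-0.17 ± 0.34). A p over the threshold does not show that these genes were equal in the 2 groups.

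Ppargc1a had 56.8, 49.2, 35.1, 60.2 and 54.7 after exercise and 65.3, 39.8, 13.5, 32.7, 19.6 and 26.8 in sham replicates 1 to 6. Sham replicate 1, which also had the high Nr4a3 value, was the highest of the 11 libraries, and the groups overlapped. The difference was 0.78 ± 0.29 (limma, adjusted p = 0.53), beside 0.74 ± 0.28 at 0 h and 1.39 ± 0.29 at 8 h of the same phase (0.16 and 0.055 after adjustment). With the length slope of each library as a covariate it was 1.05 ± 0.18 (adjusted p = 0.00021). Of the 21 measured genes of mitochondrial biogenesis, 0 passed and 4 had an unadjusted p under 0.05, all higher, beside 3.02% of all genes on that side. Without sham replicate 2 it was 2. The other 3 were Sirt3 and Sirt1, NAD-dependent deacylases of mitochondria and nucleus, and Tfam, which packages mitochondrial DNA, at 0.58 ± 0.26, 0.37 ± 0.17 and 0.36 ± 0.18. The list's median was 0.02.

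No fuel gene passed the adjusted threshold. Of 17 measured genes of the fasting fuel switch and 20 of fatty acid beta-oxidation, 0 passed and 0 had an unadjusted p under 0.05. Pdk4, the kinase that shuts pyruvate out of oxidation, had 181 to 424 after exercise and 166 to 358 in sham (0.12 ± 0.37). Ucp3, a mitochondrial carrier gene induced by fasting, had -0.17 ± 0.28, and Angptl4, the lipoprotein lipase inhibitor, 0.28 ± 0.42. In the list of insulin signalling and glucose handling 2 of 22 genes had an unadjusted p under 0.05, both lower, beside 3.84% of all genes on that side. These were Pfkfb3, which makes the activator of phosphofructokinase (-0.73 ± 0.31), and Hk1, a hexokinase (-0.75 ± 0.33), while Hk2 had 0.15 ± 0.37 and Slc2a4, the GLUT4 transporter, -0.16 ± 0.17. All had adjusted p of 0.53 or more.

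Protein breakdown genes were mixed. Trim63, the ubiquitin ligase MuRF1, had 245, 100.8, 154, 175 and 120 after exercise and 86.4 to 134.6 in sham (median 107.4), with exercised replicates 2 and 6 inside the sham range (0.49 ± 0.20, adjusted p = 0.53). It had risen at 0 h (0.94, adjusted p = 0.00063). Fbxo32, the ligase atrogin-1, had 0.19 ± 0.34. Of 21 measured FoxO and breakdown genes 3 had an unadjusted p under 0.05, all higher, beside 3.02% of all genes, and 1 did without sham replicate 2. They were Trim63, Eif4ebp1, the repressor of cap-dependent translation (0.63 ± 0.27), and the conjugating enzyme Ube2b (0.66 ± 0.33). Tnfrsf12a, the TWEAK receptor of regenerating muscle, had 123.5, 53.7, 40.7, 21.9 and 39.3 after exercise and 8.87 to 36.5 in sham (median 25.3), with 4 of 5 exercised libraries above all sham libraries (1.06 ± 0.37, adjusted p = 0.53). Plk2, a polo-like kinase gene of the growth arrest list, had 4.20 to 5.25 after exercise and 5.96 to 9.74 in sham, without overlap (-0.70 ± 0.23, adjusted p = 0.53). At 0 h its effect had the other sign, 0.74 (change -1.44 ± 0.32, limma, adjusted p = 0.0090).

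Genes of the extracellular matrix had mostly lower values. Of 25 measured genes 2 had a positive and 23 a negative difference, with a median of -0.56. Over all genes 46.7% of differences were positive. In the list 7 genes (28%) had an unadjusted p under 0.05, all lower, against 3.84% of all genes. None passed the adjustment. Sham replicate 2, which stood apart in Postn and Col3a1 of this list, changed these counts. Without it the median was -0.31, 21 of 25 differences were negative and 1 (4.0%) was lower at an unadjusted p under 0.05, against 2.06% of all genes. Tnc, tenascin C of the remodelling matrix, had 5.71 to 12.99 after exercise (median 7.25) and 7.01 to 24.6 in sham (median 14.7), at -0.86 ± 0.35. Nid2, a basement membrane linker, had -0.70 ± 0.27, Timp3, an inhibitor of matrix proteases, -0.57 ± 0.27, and Col3a1 -0.68 ± 0.30 (-0.36 without sham replicate 2). With the length slope as a covariate the list's median was -0.37 and 3 genes had an unadjusted p under 0.05. Endothelial markers had negative differences in 9 of 9 genes (median -0.59), where 46.7% of all genes had positive ones. With the length slope as a covariate, Flt1 went from -0.46 to -0.009, Tek from -0.21 to -0.01 and Kdr from -0.67 to -0.25. The summed value of the endothelial markers was 106.6 to 224 after exercise and 114.6 to 303 in sham (exact permutation test over 462 arrangements, two-sided p = 0.141, 0.46 adjusted over 13 marker lists). Of the fibroblast markers 5 of 7 had negative differences, with sums of 780 to 1976 and 1070 to 2625. In whole muscle, fewer cells of a type and less RNA per cell cannot be told apart, and the part of these cells in the matrix values was not tested.

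No list of ribosomal, respiratory chain or proteasome genes had a member that passed. All 30 cytosolic ribosomal protein genes had positive differences (median 0.62, 0.22 to 0.80), as did 23 of 29 nuclear genes of oxidative phosphorylation (median 0.33) and 23 of 27 proteasome genes (median 0.30). None of them reached an unadjusted p under 0.05. The share of positive differences over all genes was 46.7%, or 51.1% with the length slope as a covariate and 20.2% with equal totals. The length slope is the slope of a library's log2 deviation on the log2 exon length of genes. It was -0.160 to 0.173 per doubling of length in the exercised libraries (median 0.0029) and -0.172 to 0.267 in sham (median 0.136). Sham replicates 1, 2 and 4 had 0.221 to 0.267, and the groups overlapped (exact permutation test, two-sided p = 0.223). With the slope as a covariate the medians were 0.16, 0.05 and 0.08. With equal totals they were 0.28, -0.0041 and -0.03, so that the medians of oxidative phosphorylation and the proteasome changed sign, while the median of all genes stood at -0.34. Among mitochondrially encoded genes 10 of 11 had positive differences (median 0.30, and 0.35 with the slope). With equal totals their median was 0.0043, with 6 of 11 positive. At the deposited scaling 3 had an unadjusted p under 0.05, mt-Nd6, mt-Rnr1 and mt-Rnr2. All were higher, beside 3.02% of all genes on that side. The count was 1 with the slope as a covariate and 1 without sham replicate 2. The ribosomal RNA mt-Rnr2 took a large share of the values, and the sums of values per library ran from 0.713 M to 1.39 M.

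With the length slope as a covariate, 8 genes passed (0.0698% of those tested). Impact, Ell2, Ppargc1a, Snhg15, Emd and Rapgef2, an exchange factor for the GTPase RAP1, were higher, and Lhfpl2 and Maged2 were lower. Impact stood at 0.95 ± 0.14 and Ell2 at 0.89 ± 0.16 in this fit. Among the sham libraries, those with the high slopes, replicates 1, 2 and 4, had the 3 lowest Ell2 values. Rapgef2 had 11.96 to 31.97 after exercise and 8.08 to 23.96 in sham and was at 0.47 ± 0.29 without the covariate, and Maged2 at -0.52 ± 0.16.

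**Figure D4:**
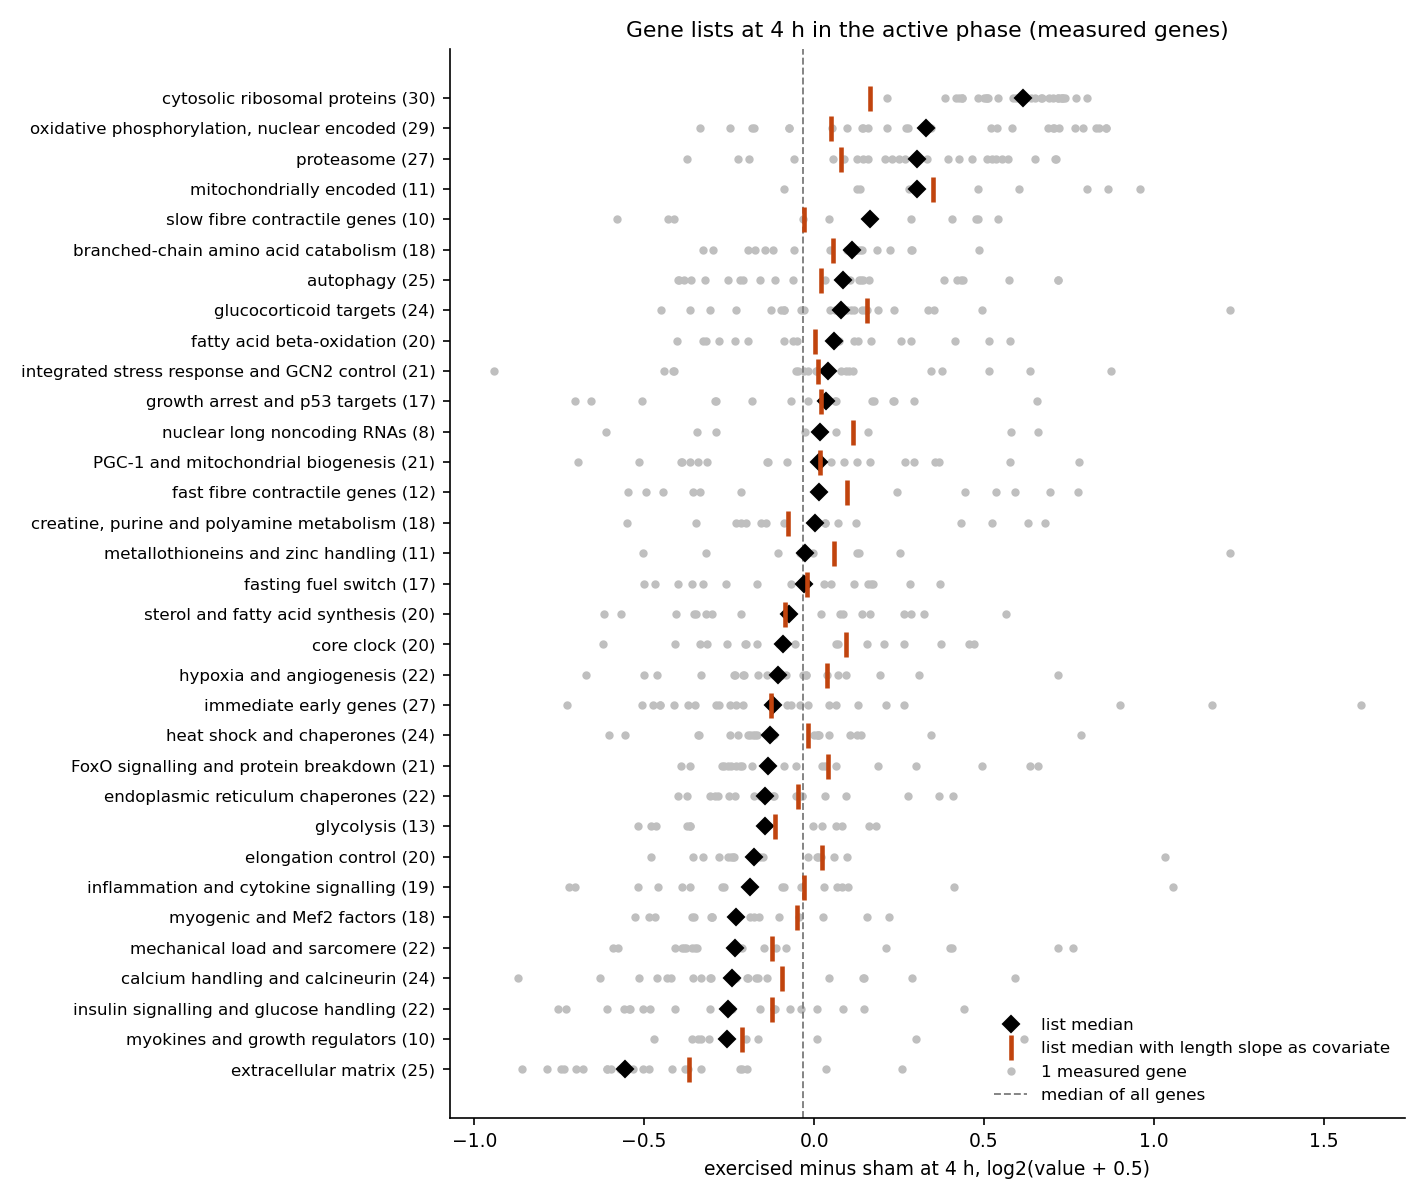
Differences at 4 h on the log2(value + 0.5) scale for the measured genes of 33 lists (grey points), with list medians (diamonds) and the medians with the length slope as a covariate (vertical bars). The dashed line is the median of all genes at -0.03. Ribosomal proteins have the highest median, 0.62, which moves to 0.16 with the covariate, and the extracellular matrix the lowest, -0.56.

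The 11 libraries held 7.76 M to 17.6 M recovered reads, within the range of 2.19 M to 27.6 M over all libraries of the series, and the depths of the 2 groups did not separate (exact permutation test, two-sided p = 0.831). The 6 libraries of the series that correlated with their group mates at a median r under 0.9 were all outside this comparison. Skeletal muscle markers were abundant in every library, with summed values of 111200 to 165000, and neutrophil markers were not measured. No summed marker list differed past the adjustment over 13 lists, and the lowest p was that of Schwann cell and nerve markers (37.4 to 57.8 after exercise, 41.2 to 81.96 in sham, exact permutation p = 0.0671).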

How the data were processed

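Total RNA of gastrocnemius muscle, without its ribosomal RNA, was sequenced from stranded libraries in read pairs of 100 bp, per the labels' protocols. The genome build was mm10 (GRCm38), per the submitters' processing notes, which list edgeR 3.2.23, featureCounts 1.5.2, STAR 2.5.3a, cutadapt 1.16, Trim Galore 0.4.3 and FastQC 0.11.5. Annotation release, strand setting and gene filter are not stated there. For each of 11461 genes a deposited file gives a signal, which the authors obtained by dividing reads by a normalised library size in M (mega) reads. All values (100%) were whole multiples of a step per library, within 0.05 read, so read counts were recovered from the deposited values, for alternatives only. A count test was to be the main test only if the files held raw counts. Because the deposited values are normalised, limma was the main test, as planned.

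limma 3.58.1 (R 4.3.3) was fitted to log2(value + 0.5) with 24 group means, a mean-variance trend, robust moderation and Benjamini-Hochberg adjustment over all 11461 genes, and no further filter on low values. A fold change on this scale understates changes of low genes. The recovered reads were tested with DESeq2 1.42.0 and edgeR 4.0.16. The length slope used 10806 protein-coding genes with an exon length in GENCODE M21, which matched 11454 of 11461 identifiers. Promoters are RefSeq entries. Named genes are those with adjusted p under 0.05, the 12 with the smallest p on each side with a mean log2 value of at least 1 (predicted, mitochondrially encoded, ribosomal protein and small RNA genes left out), the 4 smallest p of each list, and a preset set of exercise genes. The samples, lists and rules were chosen with earlier results of these data known. Marker sums were compared with an exact permutation test. The labels name no batch, and p values measure only the spread between these libraries. Other scalings, pseudocounts of 0.1 and 2, a mean value of at least 5, replicate strata, a replicate block, array weights and leaving out libraries were tried. 1 gene is not reported here.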

Additional observations from a re-analysis of the deposited data

Results flagged for a closer look

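In 158 groups of 5 or 6 libraries (79 genes in 2 groups), 12 had a library whose gap to its nearest neighbour was large for the range of the group on the log2 scale, where chance flags about 1 in 20. Among exercised libraries, Ell2 had 33.3 in replicate 2, the lowest, with the next at 56.7. Sirt1 had 13.1 in replicate 5 (next 10.6), Kdr, the VEGF receptor, 25.7 in replicate 2 (next 12.9) and Maged2 6.64 in replicate 5 (next 10.3). Among sham libraries, replicate 1 had 32.2 of Nr4a3 (next 6.93) and replicate 2 had 250.5 of Postn (next 11.4), 38.7 of Myh8 (next 1.46) and 884 of Col3a1 (next 278). Sham replicate 3 had 24.99 of Sirt3 (next 16.6) and 10.4 of Ddit4, an mTORC1 inhibitor gene (next 4.33). Sham replicate 4 had 4.99 of Egr1 (next 2.502) and 8.87 of Tnfrsf12a (next 22.3). Their part in the results was not tested beyond the repeats without single libraries.

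The exercise effect differed between 0 h and 4 h for 11 of these 79 genes by the limma test of the difference. The signed effect was lower at 4 h, on the log2 scale, for Junb (-4.48), Btg2 (-3.95), Fos (-3.93), Irs2 (-2.92), Sik1 (-2.68), Ciart (-2.27), Nr4a1 (-1.70), Maff (-1.62), Plk2 (-1.44) and Nedd9 (-1.39), and higher for Zfp354a (1.15). For Plk2 and Nedd9 it changed sign at similar size, from 0.74 to -0.70 and from 0.645 to -0.747.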

How the results depend on the processing

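The 24 genes named by rank kept their sign in every repeat, and 15 of the 79 genes with values in the text had the other sign in at least 1 (46 of 2119 values), none of them past the threshold. Counts are given here as a share of the genes tested. Against 0.0175% (2 genes) at 4 h, limma called 0 with only the 11 libraries, 0 with equal totals, 0.0436% with a pseudocount of 2, 0.0698% with the length slope, 27.2% with array weights and 0.0436% without the 6 libraries under r = 0.9 with their group mates. edgeR called 0.0873%, DESeq2 0.096% and edgeR on the 11 libraries 0. The cause of these differences was not tested. Leaving out 1 library gave 0 to 0.0524%, and edgeR gave 0.0436% without sham replicate 2 and 0 without exercised replicate 1. Against 0.55% for 4 h minus 0 h, the shares were 17.4% with only the libraries compared, 0.35% at a mean value of at least 5 (fewer genes tested), 0.34% with the slope, 0.864% with replicate strata, 56.8% with array weights, 2.06% without the 6 libraries, 0.977% with DESeq2 and 0.253% to 7.0% without single libraries. Against 0 for 4 h minus 8 h, they were 0.00873% with a pseudocount of 2, with replicate strata and with the replicate block, 0.0117% at a mean value of at least 5, 59.5% with array weights, 14.2% without the 6 libraries and 0 to 16.3% without single libraries. For the difference between phases the count was 0 in every repeat run. Whether replicate numbers pair the samples cannot be decided from 5 same-numbered pairs. Their r ran from -0.53 to 0.57, 2 were over 0.1, and 2 of 5 exercised libraries correlated best with their own number. With the replicate number as a block, 2 genes were called at 4 h, 67 for 4 h minus 0 h and 0 between the phases. At 4 h, limma gave an unadjusted p under 0.05 for 786 genes in the main fit, 915 with this block and 946 with replicate strata. Low genes such as Ciart, Egr1 and Parp10 rest on few reads. The edgeR repeats on 11 libraries and without single libraries, and the repeat without 6 libraries, were added after the data had been seen.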
